A study of Mus musculus with 16 samples.

Results

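The S100 and annexin genes encode 2 families of calcium-binding proteins. They were taken as every mouse symbol that starts with S100a or Anxa and a digit, plus S100b, S100g and S100z. The rule found 28 genes, 17 S100 and 11 annexin, of the 23935 symbols in the deposited table. The study sequenced RNA from the whole kidney of wild-type mice in 16 libraries, 4 in each of 4 groups: cisplatin with NMN, cisplatin with NR, cisplatin alone, and PBS. Cisplatin is a platinum drug that damages DNA and injures the kidney tubule, and nicotinamide mononucleotide (NMN) and nicotinamide riboside (NR) are precursors of the cofactor NAD. Each precursor was given ahead of the drug, and tissue was taken on day 3 after cisplatin. The sources used here do not give the strain, sex, age or doses, or say whether any group received a further vehicle. No label states that the 4 samples of a group came from separate animals; the p-values therefore reflect only how far these samples spread, which may be technical.

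S100 proteins are small calcium sensors built on paired EF-hand loops; most act as dimers that bind a target protein when calcium rises, and some are released from cells as danger signals. Annexins bind acidic phospholipids of membranes when calcium rises and take part in membrane traffic, the linking of actin to membranes and the patching of torn plasma membrane. Some members of the 2 families pair directly: S100A10 holds a pair of annexin A2 molecules in a complex that binds plasminogen at the cell surface, and S100A11 binds annexin A1. In the kidney S100g, also called calbindin-D9k, carries calcium across cells of the distal nephron.

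Values are TPM, abundances scaled per gene length and to a fixed total per library, so read depth is unknown. Listed values added up to 860428 to 903678 TPM in a library. Mitochondrially encoded mRNAs held 26.0% of it with NMN, 26.4% with NR, 16.6% with cisplatin alone and 28.6% with PBS. A gene was tested if it reached 1 TPM in at least 4 of the 16 libraries, and was called at an adjusted p under 0.05 (limma on log2(TPM + 1), Benjamini-Hochberg over all 12960 tested genes). All log2 changes are on that scale, on which a change at low TPM comes out too small. Cisplatin against PBS moved the median of all tested genes by 0.27, NMN against cisplatin by -0.23 and NR against cisplatin by -0.20. After median-of-ratios scaling these medians lay at 0.00, -0.02 and -0.02, and the calls of cisplatin against PBS changed to 3813 higher and 3689 lower genes, against 5278 higher and 2415 lower on the TPM as deposited. All libraries showed kidney transcripts: the summed TPM of 5 proximal tubule markers ran at 2594 to 3304 with NMN, 2581 to 3005 with NR, 134 to 150 with cisplatin and 3799 to 4180 with PBS.

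Of the 28 genes, 23 passed the filter on low values, 13 S100 and 10 annexin. Of the 5 that did not, S100a5 was listed at 0 in every library. Anxa10 was listed at 0 except for 0.08 TPM in NR library 4. S100z was listed at 0 except in PBS libraries 3 and 4, at 0.77 and 1.29 TPM. S100b, the glial S100 protein, reached at most 0.59 TPM. S100a2 had 1.00, 1.46, 0.17 and 0 TPM with cisplatin and at most 0.07 TPM in any other library. Anxa8, S100a14 and S100a7a reached the filter only because of 1 or 2 groups: Anxa8 was at 1 TPM or more in the 4 cisplatin libraries and nowhere else.

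Together the 28 genes held more of the transcriptome after cisplatin, and a different gene led. Their summed level was 6734 ± 1105 TPM with NMN, 6701 ± 963 with NR, 12350 ± 853 with cisplatin and 4458 ± 495 with PBS (SD, n = 4 each). S100g was the most abundant member with NMN, NR and PBS, at 49.9%, 48.7% and 71.1% of that sum. With cisplatin alone it was the fourth, at 9.44%, behind S100a11 at 27.7%, S100a6 at 23.4% and S100a10 at 21.8%. Without S100g the sum was 3373 ± 628 TPM with NMN, 3414 ± 263 with NR, 11180 ± 736 with cisplatin and 1294 ± 193 with PBS. The 11 annexins made up a small part of it, 479 ± 78.7 TPM with NMN, 511 ± 12.7 with NR, 1465 ± 79.2 with cisplatin and 252 ± 46.7 with PBS. The 4 cisplatin libraries were alike in make-up, and no library of another group reached their sums.

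**Figure D1:**
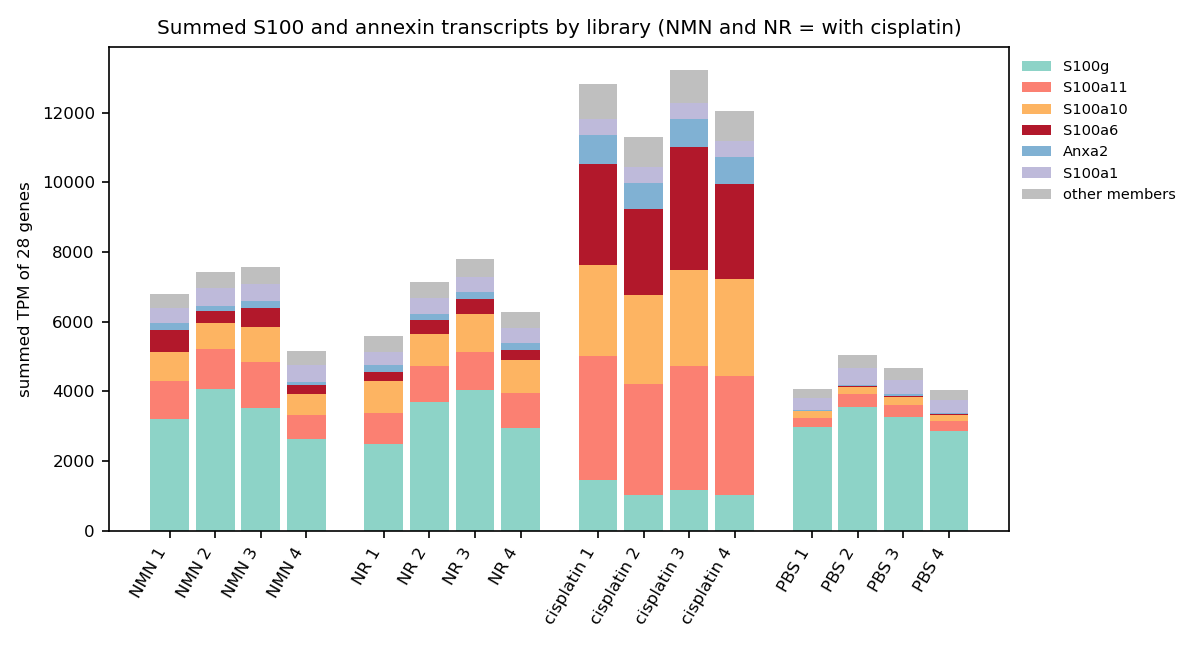
Summed TPM of the 28 S100 and annexin genes in each library, stacked by gene, for cisplatin with NMN, cisplatin with NR, cisplatin and PBS. The cisplatin bars run from 11299 to 13219 TPM and are mostly S100a11, S100a10 and S100a6, while S100g is the largest block in the other 12 libraries.

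The first comparison asked what cisplatin changed. After cisplatin, 19 of the 23 tested genes rose and 1 fell, against PBS. Among all tested genes 59.4% were called, 40.7% higher and 18.6% lower. The largest fitted rises were of S100a6, Anxa2, Anxa3, S100a3, which is listed at 0 in PBS, S100a10 and S100a11, and S100g fell. The groups did not overlap for 17 of the 23 genes, against 50.8% of all tested genes. The median log2 change over the 23 genes was 1.37, beside 0.27 over all tested genes. The 17 include Anxa8 and S100a14, which passed the filter only with the help of the cisplatin libraries. The median includes both and S100a7a. Leaving out the 3 genes that passed the filter through 1 or 2 groups left 16 higher and 1 lower of 20, and median-of-ratios scaling gave 18 higher and 1 lower of 23, where 57.9% of all tested genes were called.

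S100a6, or calcyclin, is an S100 protein of dividing and stressed cells that binds calcyclin-binding protein and annexins. It had 2883, 2475, 3529.6 and 2707 TPM with cisplatin, against 12.4, 34.0, 29.1 and 12.98 TPM with PBS. Every cisplatin library was far above every PBS library, and the ratio of the group means was 131. The log2 change was 7.09 ± 0.31 (SE; limma, adjusted p = 9.18e-12). S100a6 lay twelfth of the 28 genes by level in PBS kidneys and second in cisplatin kidneys.

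S100a11, which binds annexin A1 and moves to the nucleus when calcium rises, had 3540.5, 3178, 3544 and 3406 TPM with cisplatin, against 273, 365, 355 and 291 TPM with PBS. S100a10, the annexin A2 partner that has lost calcium binding, had 2625, 2568, 2760.1 and 2805 TPM with cisplatin, against 183, 196, 233 and 172 TPM with PBS. Both genes were already among the more abundant members in PBS kidneys, and their groups were far apart with little spread within each. The log2 changes were 3.42 ± 0.15 for S100a11 (adjusted p = 1.97e-12) and 3.78 ± 0.14 for S100a10 (adjusted p = 1.40e-13).

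Anxa2, which links actin to membranes, had 855, 747, 817 and 794 TPM with cisplatin, against 16.5, 35.0, 36.2 and 19.2 TPM with PBS. Anxa3, whose protein promotes the fusion of granules in phagocytes, had 212, 187, 228 and 212 TPM with cisplatin, against 5.76, 18.1, 11.1 and 6.63 TPM with PBS. Neither gene's groups overlapped. PBS libraries 1 and 4 were the lowest of the PBS group for both. Anxa2 changed by 4.94 ± 0.23 (adjusted p = 1.13e-11) and Anxa3 by 4.33 ± 0.24 (adjusted p = 8.59e-11), so that in TPM these annexins were 30.0 and 20.2 times as abundant with cisplatin.

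The upstream sequences of S100a6, S100a11 and Anxa2, 3 of the genes with the largest rises, are given because they differ in the letters of the AP-1 motif, TGANTCA. AP-1 is a transcription factor dimer of FOS and JUN proteins. Each run gives the 150 bases before the start annotated by RefSeq, on GRCm38.p6. The starts in GENCODE M21, another annotation, lie inside these runs, at 90612882 (S100a6), 93520488 (S100a11) and 69453620 (Anxa2). Capitals mark TGANTCA and the TATA box, TATAAA, searched on both strands.
S100a6 (chr3:90612744-90612893, + strand): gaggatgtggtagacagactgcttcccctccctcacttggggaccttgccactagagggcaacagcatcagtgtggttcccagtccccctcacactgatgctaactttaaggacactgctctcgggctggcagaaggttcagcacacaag
S100a11 (chr3:93520346-93520495, + strand): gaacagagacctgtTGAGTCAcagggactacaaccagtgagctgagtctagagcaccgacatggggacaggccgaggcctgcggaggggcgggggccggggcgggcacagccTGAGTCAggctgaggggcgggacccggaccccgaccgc
Anxa2 (chr9:69453533-69453682, + strand): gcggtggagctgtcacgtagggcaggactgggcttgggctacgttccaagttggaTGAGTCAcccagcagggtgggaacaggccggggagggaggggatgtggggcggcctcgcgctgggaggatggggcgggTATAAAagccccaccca

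S100a11 holds 2 TGANTCA matches, at -136 and -38 from the RefSeq start, and Anxa2 holds 1, at -95, and a TATAAA match at -17. The S100a6 stretch holds neither motif. The TATAAA match of Anxa2 lies after the start that GENCODE gives for this gene. In windows of 250 bases before and 50 after the start, 23 of the 28 genes had an entry, with 30 windows in all; Anxa3, Anxa6, S100a2, S100a10 and S100a14 had none. TGANTCA was found in 4 of the 30 windows (13.3%), those of Anxa2, S100a11, S100a16 and Anxa10, and in 7.81% of the 32851 windows in the table. Anxa10, which is listed at 0 in all but 1 library, held 2 matches. TATAAA was found in 8 of the 30 windows (26.7%) and in 13.6% of all windows. The cyclic AMP response element TGACGTCA was found in none of the 30 windows and in 1.79% of all. These matches are letters in a window and say nothing of binding in these kidneys.

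S100g was the member that fell. It had 1462, 1019, 1170.0 and 1026 TPM with cisplatin, against 2967, 3559.8, 3257 and 2870.3 TPM with PBS. The groups did not overlap, and the log2 change was -1.45 ± 0.16 (adjusted p = 4.03e-07). In RNA of a whole organ, fewer cells of a type and less RNA per cell cannot be told apart. The summed TPM of 5 distal nephron markers (Slc12a3, Trpv5, Calb1, Slc8a1, Trpm6) was 22.0 to 47.9 with cisplatin and 404 to 621 with PBS, and each of the 5 was above 0 in both groups. S100g kept 0.370 of its PBS mean, and the 5 markers fell by unequal amounts. Slc12a3, the salt transporter of the distal convoluted tubule, averaged 12.6 ± 5.20 TPM with cisplatin and 336 ± 84.0 TPM with PBS. Calb1 averaged 16.4 TPM with cisplatin and 135 with PBS, and Slc8a1 2.123 with cisplatin and 7.998 with PBS. Trpv5 averaged 3.095 TPM with cisplatin and 6.517 with PBS, and Trpm6 1.343 with cisplatin and 2.228 with PBS. The means of Slc12a3, Calb1 and Slc8a1 fell further than that of S100g, and those of Trpv5 and Trpm6 fell less. The part of the marker change in the S100g result was not tested.

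Among the other S100 genes, S100a3 was listed at 0 in every PBS library, which without read depth does not show that it was off. S100a3, a zinc- and calcium-binding protein known from the hair cuticle, had 21.1, 9.10, 18.1 and 8.34 TPM with cisplatin (adjusted p = 1.47e-09). The fit shares its spread over all groups, and PBS values that are all 0 add none to it. The p-values of S100a3 may therefore be too small. S100a16 had 144 to 166 TPM with cisplatin and 41.5 to 70.7 with PBS, and S100a13, which takes part in the release of proteins that lack a signal peptide, had 40.5 to 64.9 TPM with cisplatin and 18.3 to 29.8 with PBS. Their log2 changes were 1.51 ± 0.14 (adjusted p = 6.05e-08) and 1.12 ± 0.20 (adjusted p = 1.01e-04). S100a14 rose to 2.48 ± 1.09 TPM with cisplatin, against 0.470 ± 0.456 with PBS. S100a7a rose to 1.23 ± 0.759 TPM with cisplatin, against 0.195 ± 0.357 with PBS. Both stayed near the filter, and the S100a7a groups overlapped.

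S100a4, a marker often used for fibroblasts and also made by macrophages, had 34.2, 20.6, 34.7 and 9.32 TPM with cisplatin, against 6.58, 11.01, 5.78 and 6.27 TPM with PBS. Cisplatin library 4 lay below PBS library 2, so the groups overlapped, and the log2 change was 1.49 ± 0.36 (adjusted p = 0.00174). Without PBS library 1 and cisplatin libraries 1 and 3, the libraries of lowest weight in an earlier fit, the change was 0.83 (adjusted p = 0.103). That fit kept only cisplatin libraries 2 and 4 and left out the highest values of S100a4, 34.2 and 34.7 TPM. The sum of 7 fibroblast markers was 27.4 to 51.0 TPM with cisplatin and 43.1 to 132 with PBS, and that of 6 macrophage markers was 128 to 214 TPM with cisplatin and 41.9 to 105 with PBS. None of the 13 genes was listed at 0 throughout a group. Within the macrophage list the means differed in direction: Cd68 averaged 105 ± 11.3 TPM with cisplatin and 3.48 ± 2.10 with PBS and Lyz2 29.0 ± 18.2 with cisplatin and 17.4 ± 11.3 with PBS, while the means of Csf1r, C1qa, C1qb and Adgre1 were lower with cisplatin. The part of these cells in this result was not tested. In the annotation, Gm42674 on the same strand covers 51.7% of the exon bases of S100a4, and the sources used here do not say how reads over both were assigned.

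S100a8 and S100a9, the subunits of calprotectin and the classic S100 proteins of neutrophils, were not called. S100a8 had 3.87, 2.35, 10.2 and 0 TPM with cisplatin, against 3.65, 2.34, 0 and 2.68 TPM with PBS. S100a9 had 11.3, 3.84, 12.5 and 2.46 TPM with cisplatin, against 1.23, 7.49, 2.01 and 8.75 TPM with PBS. The groups overlapped for both, with wide spread within each. The log2 changes were 0.42, with a 95% interval of -1.04 to 1.88 (adjusted p = 0.623), and 0.58, with an interval of -0.73 to 1.90 (adjusted p = 0.437), so neither interval sets a narrow limit on the change. The sum of 11 other neutrophil genes was 1.86 to 6.08 TPM with cisplatin and 0.34 to 3.08 with PBS; Mpo was listed at 0 in all 16 libraries, and Ly6g in the PBS and NMN libraries. S100a1, an S100 protein best known from heart muscle, was the third gene not called, with 442 to 451 TPM with cisplatin and 355 to 485 with PBS (log2 change 0.14, 95% interval -0.07 to 0.35, adjusted p = 0.247).

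All 10 tested annexins were called higher with cisplatin, where 40.7% of all tested genes were called higher. Anxa11 was among them only before median-of-ratios scaling. Anxa8 was tested only because its 4 cisplatin libraries reached 1 TPM, which leaves 9 annexins whose entry did not depend on that group. Anxa4 and Anxa5, the annexins of epithelial apical membranes and of exposed phosphatidylserine, had 102 to 116 TPM (Anxa4) and 124 to 167 TPM (Anxa5) with cisplatin, against 27.5 to 41.0 and 41.7 to 57.8 TPM with PBS. Their log2 changes were 1.60 ± 0.14 (adjusted p = 1.93e-08) and 1.51 ± 0.13 (adjusted p = 1.68e-08). Anxa1, the glucocorticoid-induced annexin that signals through formyl peptide receptors, had 21.9, 11.5, 13.5 and 11.8 TPM with cisplatin, against 2.88, 9.56, 4.15 and 4.47 TPM with PBS, a log2 change of 1.38 ± 0.32 (adjusted p = 0.00121). Without the 3 libraries of lowest weight, among them cisplatin library 1 with the highest value of Anxa1, its change was 0.92 (adjusted p = 0.0614). The groups of these 3 annexins did not overlap.

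Smaller changes were found for Anxa7 (0.71 ± 0.11, adjusted p = 2.47e-05) and Anxa6 (0.62 ± 0.15, adjusted p = 0.00198), annexins of granule secretion and of endosomes. Anxa9 rose to 3.46 ± 0.627 TPM with cisplatin, against 1.62 ± 0.75 with PBS, and Anxa8 to 2.07 ± 0.423 TPM with cisplatin, against 0.200 ± 0.274 with PBS. Anxa11 was at the edge: 49.8 to 65.7 TPM with cisplatin and 37.8 to 52.0 with PBS, a log2 change of 0.29 ± 0.11 (adjusted p = 0.0380). After median-of-ratios scaling its change was -0.02 (adjusted p = 0.818). It was also not called without PBS library 1 (0.19) or without cisplatin library 1, 2 or 4 (0.23, 0.30 and 0.27), with adjusted p between 0.0534 and 0.141.

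**Figure D2:**
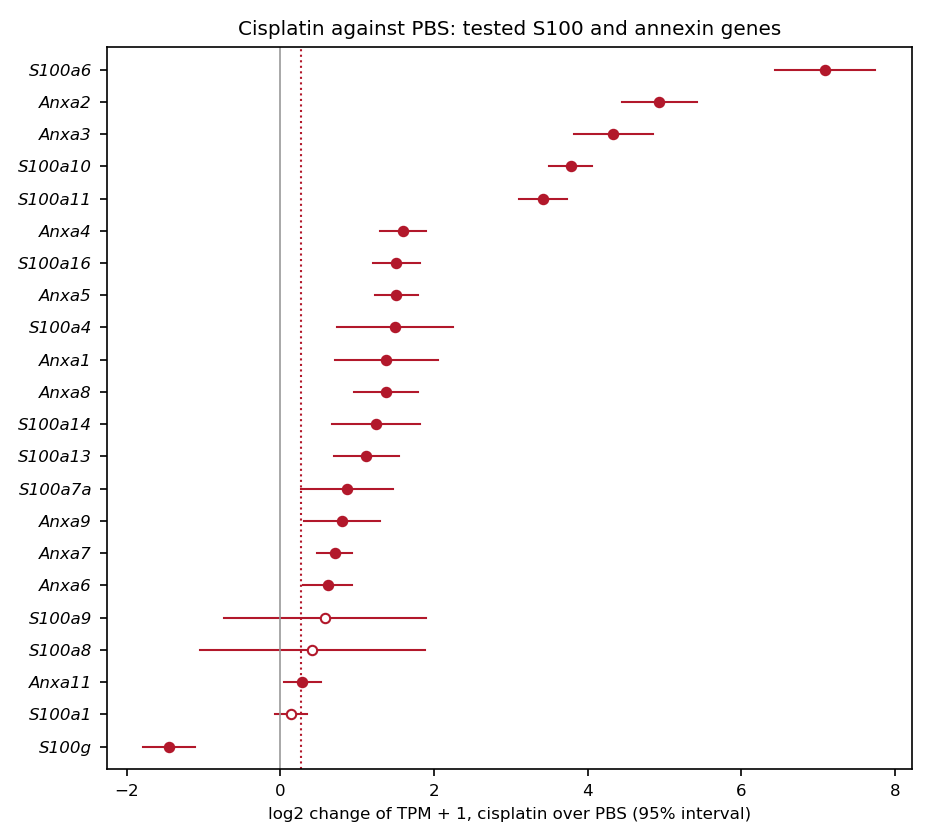
Log2 change of TPM + 1 with its 95% interval, cisplatin over PBS, for 22 of the 23 tested genes; filled points were called and the dotted line is the median of all tested genes. S100a3 is left out because it is listed at 0 in PBS; S100a6 stands at 7.09 and S100g, at -1.45, is the only point left of 0.

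The rises were set beside cell markers that moved too. The sum of 5 injured tubule markers (Havcr1, Lcn2, Krt20, Vcam1, Sox9) was 3316 to 3707 TPM with cisplatin and 2.30 to 11.6 with PBS. That of 4 collecting duct markers was 481 to 580 TPM with cisplatin and 268 to 327 with PBS, with higher means with cisplatin for Aqp2 and Fxyd4 and lower means for Aqp3 and Scnn1g. That of 5 urothelial markers was 7.04 to 7.87 TPM with cisplatin and 0.49 to 1.36 with PBS, of which Psca made up 6.38 ± 0.442 TPM with cisplatin and 0.0225 ± 0.045 with PBS, the 4 uroplakins each averaging under 1 TPM. That of 5 fat cell markers was 113 to 262 with cisplatin and 0.46 to 56.0 with PBS. In the other direction, 5 endothelial markers summed to 59.2 to 122 TPM with cisplatin and 136 to 269 with PBS. The sum of 5 red blood cell markers (Hbb-bs, Hbb-bt, Hba-a1, Hba-a2, Alas2) was 8.2 to 33.9 TPM with cisplatin and 1876 to 3820 with PBS. It was 1357 to 2882 TPM with NMN and 1268 to 2603 with NR, so the cisplatin libraries stood apart from all others in these transcripts. No gene of these lists was listed at 0 throughout a group, and the part of these cell types in the changes of the S100 and annexin genes was not tested.

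Most S100 genes lie close together in the genome, and neighbours differed in the size of their fitted changes. On chromosome 3 of GRCm38, 12 of the 17 lie within 90511034-90695721, from S100a1 to S100a9, and S100a11 and S100a10 follow within 93520488-93564643. S100b is on chromosome 10, S100z on 13 and S100g on X at 162961992-162964599, while Anxa2 is on chromosome 9 at 69453620-69491795 and the annexins are spread over 8 chromosomes. S100a1 and S100a13 are transcribed away from each other from starts 42 bases apart. S100a13 rose and S100a1 was not called, with log2 changes of 1.12 and 0.14. In the same block S100a6, at 90612882-90624181, changed by 7.09 and its neighbour S100a4, at 90603771-90606045, by 1.49, while S100a5 between them was listed at 0 in all libraries. The difference between neighbours was not itself tested.

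The second comparison set each precursor, given with cisplatin, against cisplatin alone. Both comparisons use the same 4 cisplatin libraries, so their values are given side by side. With NMN, 16 of the 23 tested genes were lower and 1 higher than with cisplatin alone, where 49.1% of all tested genes were called, 34% lower and 15.1% higher. With NR, 17 were lower and 1 higher, where 46.6% of all tested genes were called, 32.2% lower and 14.4% higher. Leaving out the 3 genes that passed the filter through 1 or 2 groups left 14 lower and 1 higher of 20 with either precursor. S100a6, Anxa2, Anxa3, S100a11 and S100a10 were lower with either precursor, and S100g was higher. The median log2 change over the 23 genes was -0.92 with NMN and -0.88 with NR, beside -0.23 and -0.20 over all tested genes. Anxa8, S100a14 and S100a7a are included in these medians. After median-of-ratios scaling 15 were lower and 2 higher with NMN, with S100a1 added to the higher genes, and 13 lower and 1 higher with NR, where 45.8% and 43.6% of all tested genes were called.

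S100a6 had 622, 331, 547 and 268 TPM with NMN and 278, 406, 424 and 302 TPM with NR, against 2883, 2475, 3529.6 and 2707 TPM with cisplatin. No library with a precursor came near the cisplatin range, and the 2 precursor groups overlapped. The log2 changes were -2.78 ± 0.31 with NMN (adjusted p = 1.87e-06) and -3.05 ± 0.31 with NR (adjusted p = 9.06e-07).

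S100a11 had 1084, 1146, 1294 and 699 TPM with NMN and 903, 1039, 1089 and 1001 TPM with NR, against 3178 to 3544 TPM with cisplatin. S100a10 had 839, 759, 1008 and 583 TPM with NMN and 905, 923, 1101 and 957 TPM with NR, against 2568 to 2805 TPM with cisplatin. Anxa2 had 194, 149, 211 and 100.1 TPM with NMN and 180.3, 168, 195 and 182 TPM with NR, against 747 to 855 TPM with cisplatin. For all 3 genes the precursor libraries lay together and below the cisplatin libraries. Their log2 changes were -1.73, -1.78 and -2.34 with NMN (adjusted p = 5.37e-08, 9.75e-09 and 3.91e-07) and -1.76, -1.47 and -2.14 with NR (adjusted p = 4.89e-08, 1.47e-07 and 1.36e-06).

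NMN library 4 was the lowest of its group for S100a6, S100a10, S100a11, Anxa2 and Anxa3, and NMN library 3 the highest for S100a10, S100a11 and Anxa2. The injured tubule markers summed to 387 TPM in NMN library 4 and 1042 TPM in NMN library 3, the lowest and the highest of that group, and the part of this in the levels was not tested. The NR libraries were closer to each other in the same markers, at 842 to 929 TPM. In fat cell markers they were further apart, with sums of 3.63 to 209 TPM, against 2.64 to 53.1 TPM with NMN.

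S100g had 3219, 4061, 3535 and 2627 TPM with NMN and 2477, 3689, 4040.1 and 2939.7 TPM with NR, against 1462, 1019, 1170.0 and 1026 TPM with cisplatin. It was the member that rose with both precursors, by 1.52 ± 0.16 with NMN (adjusted p = 5.55e-07) and 1.48 ± 0.16 with NR (adjusted p = 9.83e-07), and no groups overlapped with cisplatin. The distal nephron markers summed to 272 to 479 TPM with NMN and 278 to 425 with NR, against 22.0 to 47.9 TPM with cisplatin.

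S100a3 had 1.97, 1.33, 2.34 and 4.72 TPM with NMN and 4.76, 4.91, 4.72 and 6.12 TPM with NR, all below the 8.34 to 21.1 TPM of cisplatin. Its log2 changes were -2.06 ± 0.28 with NMN (adjusted p = 7.84e-06) and -1.21 ± 0.28 with NR (adjusted p = 0.00153). Without the 3 libraries of lowest weight, S100a3 and S100a13 were not called with NR (-0.67 and -0.52, adjusted p = 0.0669 and 0.112). Cisplatin libraries 1 and 3, left out of that fit, held the highest values of both genes. Anxa3, Anxa4, Anxa5, S100a16, Anxa7 and S100a13 were also lower with both, with log2 changes between -1.85 and -0.61 with NMN and between -1.88 and -0.53 with NR. Anxa8, which entered the test through its cisplatin libraries, had at most 0.59 TPM with NMN and 0.20 with NR, against 1.66 to 2.65 TPM with cisplatin. S100a1, S100a8, S100a9, Anxa9 and Anxa11 were called with neither.

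Calls near the threshold were less stable. S100a4 was lower with NMN (-0.92, adjusted p = 0.0432) and with NR (-0.91, adjusted p = 0.0471). The NMN call was lost when any of 8 of the 16 libraries was left out (PBS 4, cisplatin 1, 2 or 3, NMN 1, 2 or 4, NR 4), with adjusted p of 0.0514 to 0.135. The NR call was lost when any of 13 was left out (PBS 1, 3 or 4, cisplatin 1, 2 or 3, any NMN library, NR 1, 2 or 4), with adjusted p of 0.0512 to 0.170. With NR, Anxa1 (-0.97) was not called without cisplatin 1 or NR 3, and Anxa6 (-0.45) not without cisplatin 1, with adjusted p of 0.0577 to 0.0759. S100a14 with NR (-0.74) was not called without cisplatin 2 or 4 or NR 1, 2 or 3, and S100a7a with NR (-0.75) not without NR 1, 3 or 4, with adjusted p of 0.0530 to 0.129. With NMN, Anxa1 (-1.14) and Anxa6 (-0.53) were called lower without each library in turn, and S100a7a (-0.50) was not called. S100a14 (-0.92) was called lower in each of these fits too. It passed the filter only with the help of the cisplatin libraries it was compared with, so its calls are not a sign of stability. Without the 3 libraries of lowest weight Anxa1 was not called by limma with NMN (-0.88, adjusted p = 0.0694) or with NR (adjusted p = 0.144).

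The third comparison asked how the groups given a precursor compared with PBS; both comparisons use the same 4 PBS libraries. With NMN, 7 of the 23 tested genes were higher than with PBS and none lower, where 6% of all tested genes were called, 5.89% higher and 0.116% lower. With NR, 9 were higher and none lower, where 10% of all tested genes were called, 8.79% higher and 1.21% lower. S100a6, S100a10, S100a11, S100a3, Anxa2, Anxa3 and Anxa4 were higher with both, and S100a16 and Anxa5 with NR. The median log2 change over the 23 genes was 0.38 with NMN and 0.51 with NR, beside 0.05 and 0.06 over all tested genes. At an unadjusted p under 0.05, 10 of the 23 differed with NMN and 9 with NR, against 16.4% and 22.1% of all tested genes.

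S100a6 was the member furthest above PBS, by 4.31 ± 0.31 with NMN (adjusted p = 8.86e-08) and 4.05 ± 0.31 with NR (adjusted p = 1.38e-07), with group means 20 and 15.9 times that of PBS. With NMN, Anxa2 was higher by 2.59, Anxa3 by 2.48, S100a10 by 2.00 and S100a11 by 1.69. With NR, Anxa2 was higher by 2.79, Anxa3 by 2.45, S100a10 by 2.31 and S100a11 by 1.66. None of these groups overlapped with PBS, and every adjusted p was at most 1.96e-06. S100a3 was listed at 0 in every PBS library and had at least 1.33 TPM in every library with a precursor (adjusted p = 3.42e-04 with NMN and 2.84e-06 with NR). S100g, by contrast, had log2 changes of 0.07 with NMN (95% interval -0.26 to 0.41) and 0.03 with NR (95% interval -0.30 to 0.37), and its groups overlapped with PBS.

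Anxa4 was higher by 0.52 with NMN (adjusted p = 0.0315) and by 0.55 with NR (adjusted p = 0.0156). The NMN call was lost without PBS 1 or 4 or NMN 1, 2 or 3, with adjusted p of 0.0638 to 0.150, and the NR call without PBS 1 or NR 4, with adjusted p of 0.0601 and 0.0523. Anxa5 was higher by 0.64 with NR (adjusted p = 0.00295) and by 0.41, not called, with NMN (adjusted p = 0.0804). S100a16 was higher by 0.63 with NR (adjusted p = 0.00694) and by 0.47, not called, with NMN (adjusted p = 0.0685). Without PBS 2, Anxa5 and S100a16 were called with NMN too (adjusted p = 0.0414 and 0.0465), as was S100a16 without PBS 3 (adjusted p = 0.0123).

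**Figure D3:**
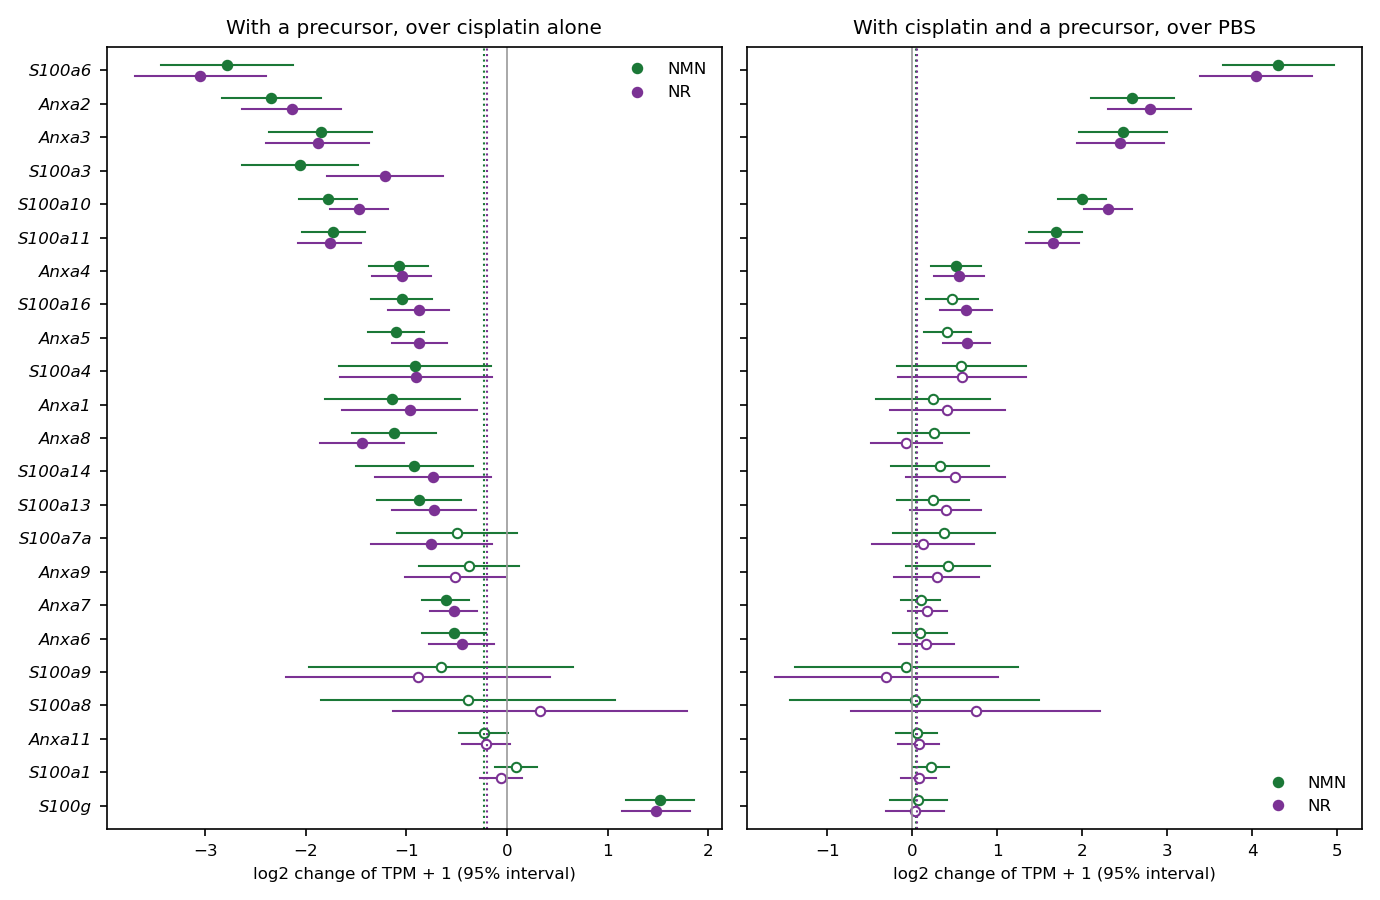
Log2 change of TPM + 1 with its 95% interval for the tested genes, cisplatin with NMN (green) and cisplatin with NR (purple), over cisplatin alone on the left and over PBS on the right; filled points were called and dotted lines are the medians of all tested genes. S100a6 lies at -2.78 and -3.05 on the left and at 4.31 and 4.05 on the right, where S100a3 is left out because it is listed at 0 in PBS, while S100g is right of 0 on the left and near 0 on the right.

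NMN and NR were also compared with each other. None of the 23 genes was called by limma, and 0% of all 12960 tested genes; at an unadjusted p under 0.05, 2 of the 23 and 370 of all genes (2.85%) differed. The 2 were S100a3, at -0.85 with a 95% interval of -1.43 to -0.27 (unadjusted p = 0.00655), and S100a10, at -0.31 with an interval of -0.59 to -0.02 (unadjusted p = 0.0350), both lower with NMN and both at an adjusted p of 0.9999. The NMN and NR libraries overlapped for each of the 23 genes, for S100a3 only in a shared value of 4.72 TPM, where 1.64% of all tested genes did not overlap. For S100a6 the difference was 0.27, with an interval of -0.39 to 0.92, and for S100g 0.04, with an interval of -0.30 to 0.38. The intervals were widest for S100a8, at -2.18 to 0.75, so these data do not show that the precursors act alike on it.

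**Figure D4:**
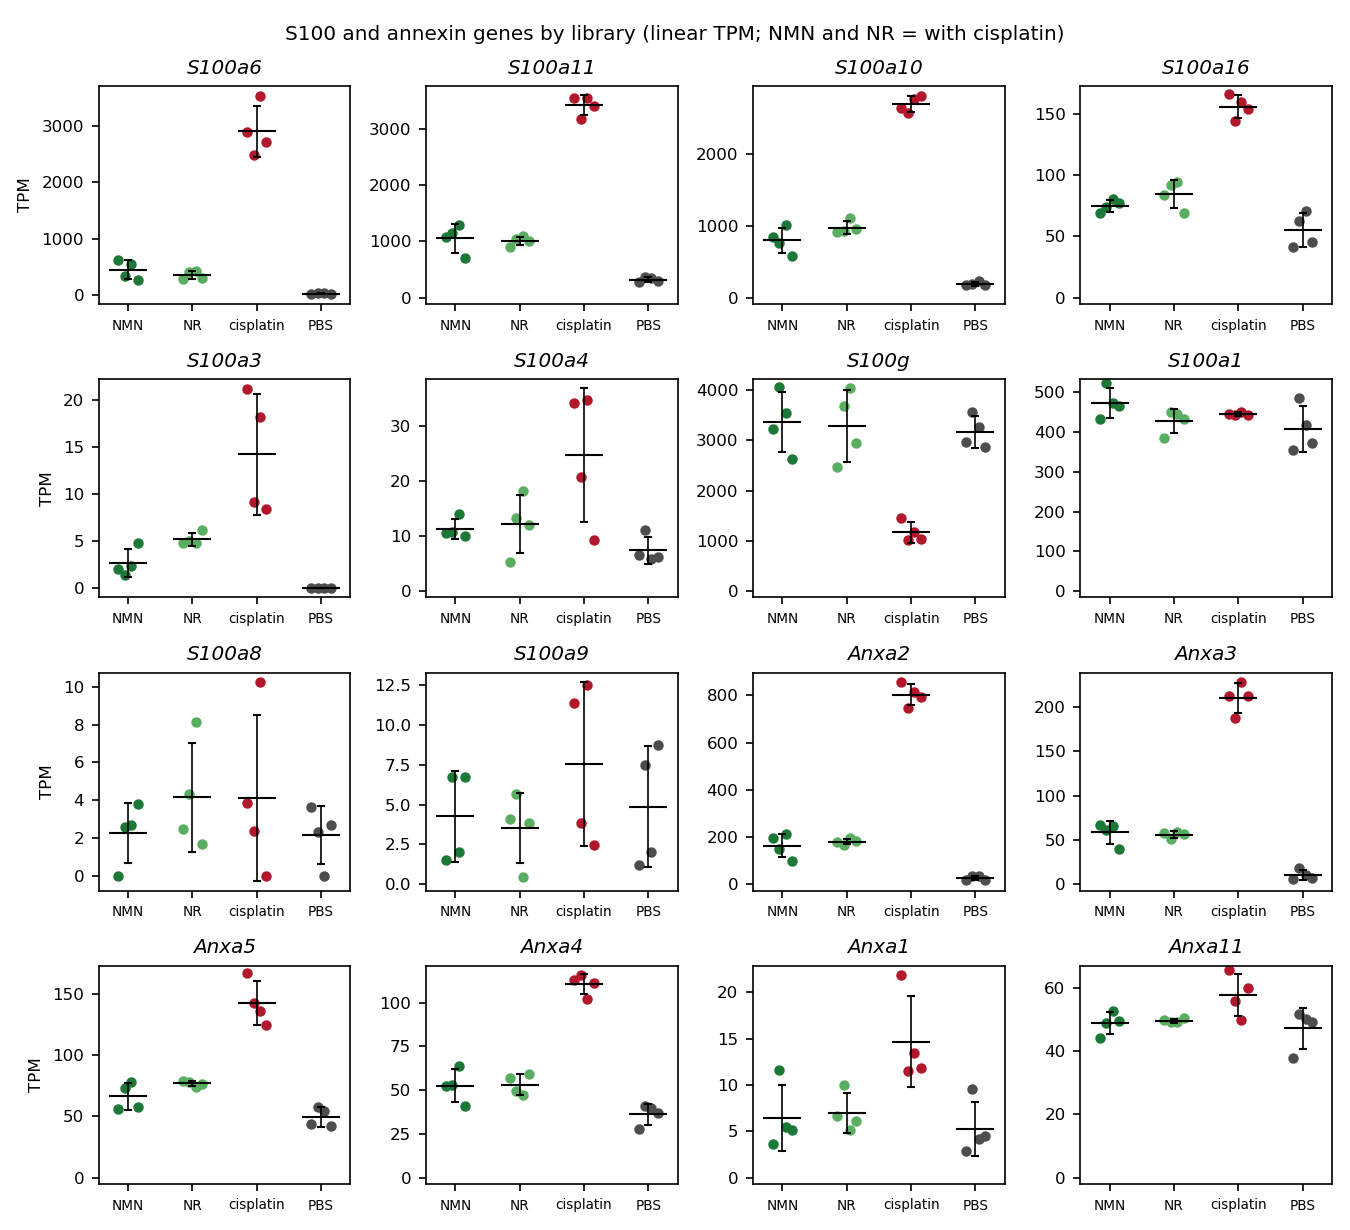
TPM of 16 S100 and annexin genes in each library (points) with group mean and SD (lines), on linear axes, for cisplatin with NMN, cisplatin with NR, cisplatin and PBS. The cisplatin points stand clear of the other groups for S100a6, S100a11, S100a10, Anxa2 and Anxa3, lie below them for S100g, and mix with them for S100a8, S100a9 and S100a1.

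The ratio of partner transcripts within a library was also compared, a measure that does not depend on how the library was scaled. The ratio of S100a10 to Anxa2 was 4.32, 5.11, 4.77 and 5.83 with NMN, 5.02, 5.51, 5.64 and 5.26 with NR, 3.07, 3.44, 3.38 and 3.53 with cisplatin, and 11.1, 5.59, 6.43 and 8.95 with PBS. The cisplatin libraries had the lowest ratios, below every library of the other groups. The mean log2 ratio differed by -1.21 for cisplatin against PBS, by 0.57 for NMN against cisplatin and by 0.68 for NR against cisplatin. Each had an exact two-sided permutation p of 0.0286, the smallest that 4 against 4 libraries allow. After adjustment over the 12 ratio tests it was 0.0572, so none passed. With so few libraries no ratio could pass by itself, however far apart its groups. That none passed therefore does not show that the ratios were alike.

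The ratio of S100a11 to Anxa1 was 302, 98.9, 239 and 137 with NMN, 135, 104, 214 and 164 with NR, 162, 276, 263 and 288 with cisplatin, and 94.6, 38.2, 85.6 and 65.2 with PBS. The PBS libraries had the lowest ratios, and the 3 other groups overlapped. The mean log2 ratio differed by 1.85 for cisplatin against PBS, by 1.40 for NMN against PBS and by 1.15 for NR against PBS, each with an exact permutation p of 0.0286 and an adjusted p of 0.0572. The ratio of S100a8 to S100a9 is not given, since 4 libraries had less than 1 TPM of either gene.

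**Figure D5:**
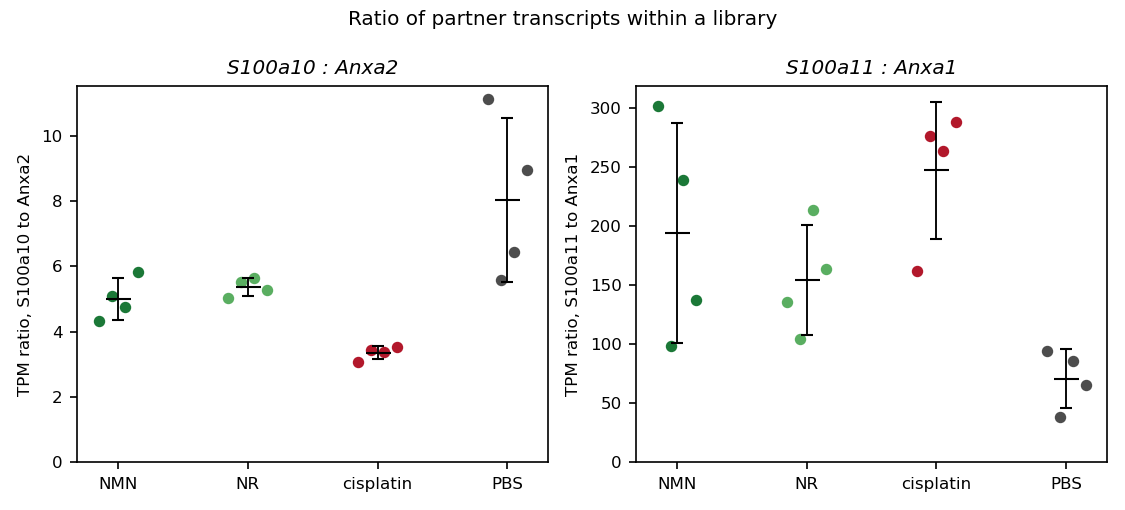
Ratio of TPM within each library (points) with group mean and SD (lines), S100a10 to Anxa2 on the left and S100a11 to Anxa1 on the right, on linear axes that start at 0. The left ratio is 3.07 to 3.53 with cisplatin and 5.59 to 11.1 with PBS, and the right one 162 to 288 with cisplatin and 38.2 to 94.6 with PBS.

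Receptors and partners of these proteins were followed through a list of 23 genes, of which 16 were tested. With cisplatin, 9 were higher and 4 lower than with PBS, where 40.7% of all tested genes were higher and 18.6% lower. Ahnak, the giant scaffold that binds the S100A10 and annexin A2 complex, had 67.2 ± 4.97 TPM with cisplatin and 6.65 ± 2.59 with PBS, a log2 change of 3.21 (adjusted p = 5.21e-10). Plat, the tissue plasminogen activator, whose activity that complex enhances, had 522 ± 138 TPM with cisplatin and 19.7 ± 8.10 with PBS (4.71, adjusted p = 2.25e-08). Myh9, the nonmuscle myosin bound by S100A4, had 100.5 ± 16.3 TPM with cisplatin and 30.7 ± 7.25 with PBS, and Sugt1, a partner of S100A6, had 49.9 ± 4.62 TPM with cisplatin and 20.8 ± 6.86 with PBS. Ahnak and Plat were lower with NMN (17.1 ± 4.34 and 85.4 ± 51.1 TPM) and with NR (18.5 ± 3.26 and 96.2 ± 10.6 TPM) than with cisplatin, and both were higher with NMN than with PBS (1.27 and 1.94, adjusted p = 7.32e-04 and 0.00358).

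Receptors for released S100 proteins differed widely in level. Ager, which encodes RAGE, had 4.07 ± 1.14 TPM with cisplatin and 1.64 ± 0.622 with PBS (0.95, adjusted p = 0.00506), and Tlr4 had 1.41 ± 0.315 TPM with cisplatin and 0.295 ± 0.154 with PBS (0.89, adjusted p = 0.00250). Bsg and Cd36, which encode other receptors reported for S100A8 and S100A9, were more abundant: Bsg had 599 ± 12.5 TPM with cisplatin and 574 ± 46.4 with PBS (0.07, adjusted p = 0.520). Cd36 had 80.04 ± 24.9 TPM with cisplatin and 145 ± 39.4 with PBS (-0.86, adjusted p = 0.0113). Of the formyl peptide receptors, Fpr2 was under the filter, with 1.36, 0.82, 0.85 and 0 TPM with cisplatin and listed at 0 in every PBS library, and Fpr3 was listed at 0 in all libraries. Over the list of 16, NMN gave 2 higher and 7 lower than cisplatin, and NR 2 higher and 9 lower. Among all tested genes 49.1% and 46.6% were called in either direction. Against PBS, NMN gave 2 higher and NR 4 higher, with none lower. Among all tested genes 5.89% with NMN and 8.79% with NR were higher than with PBS.

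Other EF-hand proteins moved in both directions. Of 36 tested, 21 were higher and 9 lower with cisplatin than with PBS, where 40.7% of all tested genes were higher and 18.6% lower. Efhd2, an actin-binding EF-hand protein, had 89.1 ± 9.37 TPM with cisplatin and 10.8 ± 1.41 with PBS (log2 change 2.93, adjusted p = 1.64e-11). Capns1, the small calpain subunit, had 630 ± 51.3 TPM with cisplatin and 185 ± 32.6 with PBS (1.78, adjusted p = 3.25e-10). The calcium buffers of the distal nephron fell as S100g did: Calb1 had 16.4 ± 4.20 TPM with cisplatin and 135 ± 20.3 with PBS (-2.99, adjusted p = 6.55e-10), and Pvalb 0.528 ± 1.06 TPM with cisplatin and 24.8 ± 4.49 with PBS (-4.26, adjusted p = 1.62e-09). Calb1 averaged 96.0 ± 28.2 TPM with NMN and 92.1 ± 13.4 with NR, and Pvalb 19.1 ± 3.74 with NMN and 18.5 ± 4.79 with NR, all higher than with cisplatin. Over the list of 36, NMN gave 7 higher and 17 lower than cisplatin, and NR 7 higher and 18 lower. Among all tested genes 49.1% and 46.6% were called. Against PBS, NMN gave 3 higher and NR 7 higher, where 5.89% and 8.79% of all tested genes were higher.

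Genes of plasma membrane repair, in which annexins act with calpains and the ESCRT-III complex, were followed through 25 tested genes: 18 were higher and 2 lower with cisplatin than with PBS, where 40.7% of all tested genes were higher and 18.6% lower. Myof, a ferlin that fuses membranes, had 90.1 ± 13.8 TPM with cisplatin and 5.31 ± 3.49 with PBS (4.01, adjusted p = 1.36e-09). Chmp4b and Chmp2a, subunits of ESCRT-III, had 158 ± 5.08 and 275 ± 21.7 TPM with cisplatin, against 58.1 ± 5.07 and 125 ± 10.5 TPM with PBS, and Capn2, a calpain, 75.7 ± 7.05 TPM with cisplatin against 21.5 ± 3.37 with PBS. All 4 were lower with NMN and with NR than with cisplatin and higher with each than with PBS, Myof by 2.09 with NMN (23.3 ± 4.38 TPM) and 2.10 with NR (23.2 ± 3.14 TPM). Over the list of 25, NMN gave 2 higher and 17 lower than cisplatin, and NR 2 higher and 16 lower. Among all tested genes 49.1% and 46.6% were called. Against PBS, NMN gave 9 higher and NR 10 higher, where 5.89% and 8.79% of all tested genes were higher.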

How the data were processed

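Whole-kidney RNA was profiled in 16 libraries, grouped by their sample titles into 4 groups of 4. The deposited table holds the authors' TPM for 23982 entries; the submitters' processing notes name DESeq2 1.10.1, HTSeq 0.6.1, STAR 2.4.1d and Trim Galore, and GRCm38, with no role or order. The sources used here do not give gene lengths, annotation or strand setting. TPM keeps no depth, so no counting interval can be given. Entries sharing a symbol (94) were summed to 23935 symbols.

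The 28 genes, the other lists (chosen for known partners, EF-hand proteins and membrane repair) and the tests were chosen with earlier results of these data known. Every member that passed the filter is named. From each other list the 4 called genes with the smallest adjusted p in cisplatin against PBS are named, plus Ager, Tlr4, Fpr2, Ahnak and Calb1, and 1 further gene that is not reported here; Fpr3, Bsg, Cd36 and single marker genes outside the defining ones were added after their values were seen. Genes that reached 1 TPM in 4 or more libraries (12960) were fitted on log2(TPM + 1) with limma 3.58.1 (R 4.3.3, statmod 1.5.0), 4 group means, trend and robust moderation and Benjamini-Hochberg adjustment, with calls at 0.05. The procedure was tested on simulated data. Partner ratios were compared with exact two-sided permutation tests. Errors on TPM are SD with n = 4, and errors on log2 changes are SE. Positions are from GENCODE M21 and promoters from RefSeq, both on GRCm38. Beyond S100a4, annotated overlaps covered at most 4.53% of a member's exon bases. Alternatives were limma without trend and robust, a pseudocount of 0.1, a minimum of 5 TPM or none, median-of-ratios scaling, the compared groups alone, a replicate block, each replicate left out, and fits without 3 libraries of low weight or without NR libraries 3 and 4. Plots used Python 3.11.15 with matplotlib 3.10.9.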

Additional observations from a re-analysis of the deposited data

Results flagged for a closer look

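Among 91 groups of 4 libraries examined, 3 held a library far from the other 3; chance alone gives about 1 in 20 groups. S100a3 was 6.12 TPM in NR library 4, against 4.72 to 4.91 TPM in the other NR libraries. S100a4 was 11.01 TPM in PBS library 2, against 5.78 to 6.58 TPM in the other PBS libraries. S100a7a was 0.73 TPM in PBS library 4, against 0 to 0.05 TPM in the other PBS libraries.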

How the results depend on the processing

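Of the 71 calls on single members over the 6 comparisons, 57 held under every alternative that tested the gene and 14 were lost in at least 1. With each library left out in turn, 62 held in every fit that tested the gene. The calls of Anxa8 and S100a7a were tested in 12 of these 16 fits, since the genes fell under the filter in the others. Anxa8 was not tested when a cisplatin library was left out. Only Anxa11 in cisplatin against PBS turned direction, to -0.021 after median-of-ratios scaling, since that scaling takes out the shift of the median of all genes. Without each replicate in turn the members called numbered 17 to 20 for cisplatin against PBS, 15 to 17 for NMN and 13 to 18 for NR against cisplatin, 6 to 9 for NMN and 8 to 9 for NR against PBS, and 0 for NMN against NR. Over all genes the same fits called 7186 to 7682 for cisplatin against PBS, and 5656 to 6505 for NMN and 5372 to 6139 for NR against cisplatin. They called 511 to 925 for NMN against PBS, the lowest without NMN library 3, and 982 to 1326 for NR against PBS. For NMN against NR they called 0 to 1, with 1 also in the fit of the compared groups alone. NR against PBS had 698 calls without NR libraries 3 and 4, which leaves 2 libraries in that group. When PBS 1, cisplatin 1 and cisplatin 3, of lowest weight in an earlier fit, were left out, 21 members were tested and 15, 14, 12, 6, 8 and 0 called, in the same order of comparisons. That fit left 2 libraries with cisplatin alone. Shares over all genes are not given for it or for the next fit, so these counts do not show a change particular to the members. With the replicate number as a block the calls were 20, 17, 18, 8, 9 and 0, the added one being S100a16 for NMN against PBS. The numbers were not taken to pair the samples, since no label says that equal numbers pair them. Of 24 same-number pairs, 9 correlated over 0.1 (-0.13 to 0.287). As a hint of pairing from the data, the same number was the best match in 29 of 48 cases, each a choice among 4 libraries. It was the best match throughout in 2 of 16 libraries. Among PBS, NMN and NR all 12 pairs were positive, 8 over 0.1. With 4 libraries a group, TPM without depth and members near 1 TPM, changes of S100a8, S100a9, S100a14, S100a7a, Anxa8 and Anxa9 are the least precise.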
